A study of Marchantia polymorpha with 6 samples.

Results

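Among the gene models of the liverwort Marchantia polymorpha, 62 of 19287 had reads in every plant of the mutant Mpbes1 and next to none in the wild type Tak-1. They were chosen by their raw counts, with at least 10 in each of the 3 Mpbes1 libraries and a sum of at most 3 over the 3 Tak-1 libraries. The difference between genotypes is therefore what selected these gene models, and it is described here without a test. Mpbes1 carries a CRISPR-generated mutation of the gene for the transcription factor BES1; the sources used here give neither the allele nor whether the 3 mutant plants came from 1 edited line. Tak-1 is the male wild-type accession, the labels name it for all plants grown, and neither genotype was treated. All plants were 30 days old and had grown on agar medium under white light of 50 µmol/m2/s, with a day of 16 h at 22 °C and a night of 8 h at 20 °C. Each library was made from poly(A) RNA of about 100 mg of thallus, the flat haploid plant body, with the apical notches in which the growing points lie.

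BES1 belongs to the BES1/BZR1 family of DNA-binding proteins of plants. In Arabidopsis these proteins act at the end of the brassinosteroid hormone pathway, where they raise the expression of some genes and repress that of others. A gene that is silent in wild-type thallus may be off in all cells, or on in too few cells to be seen in a whole piece of tissue. In bulk tissue, more cells of a type and more RNA per cell cannot be told apart.

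Of the 19287 identifiers 0 could be paired with a name in the reference table used here, which lists genes of another assembly. The 62 gene models are therefore described by identifier, position, exon structure and level, and no function is given to any of them. The transcript of the mutated gene, and markers of thallus tissue, were not analysed here for the same reason. Scaffold positions were taken as deposited and start at 1.

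Total counts ran from 11597664 to 17741253 over the 3 Mpbes1 libraries and from 11650752 to 13609401 over the 3 Tak-1 libraries. Levels are given as CPM, the read count divided by the TMM-adjusted library size in units of 1000000 reads, and as CPM per kb of exon length where gene models are compared with each other. A level of 3 counts, the limit that a count of 0 allows, was 0.166 to 0.266 CPM in a single library and 0.0799 CPM over the Tak-1 group. No library stood apart from its genotype: Spearman correlations over tested genes were 0.991 to 0.997 for libraries of the same genotype, against 0.926 to 0.941 for libraries of different ones.

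The 62 gene models together took 0.152% ± 0.029 of all counts in Mpbes1 (SD, n = 3). In numbers of reads they had 19175, 15035 and 30617 counts in Mpbes1 replicates 1, 2 and 3, against 31, 24 and 19 counts in Tak-1 replicates 1, 2 and 3. Of the 62, 25 had 0 counts in Tak-1, 10 had 1 count, 17 had 2 and 10 had 3. The few Tak-1 reads were spread over the libraries, with a read of 24, 19 and 17 of the gene models in replicates 1, 2 and 3.

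All 62 passed the filter on low counts, through their Mpbes1 values, and all were called higher by at least 2-fold in the edgeR fit over all genes. Over the 12313 genes tested, 4.55% were called so. At any size, 19.3% of all genes tested were called higher. Because the selection used this contrast, nothing is read from the difference between these shares. The 62 made up 11.1% of the 560 genes called higher by at least 2-fold.

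Where they were expressed, the gene models covered a wide range. Their mean level in Mpbes1 ran from 0.422 to 194 CPM per kb with a median of 9.39, against a median of 13 CPM per kb over all genes tested, and 28 of the 62 lay above the median of the genes tested. The signal was concentrated: the 2 gene models with most reads held 26.6% of the Mpbes1 counts of the 62, and the top 10 held 59.2%.

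**Figure D1:**
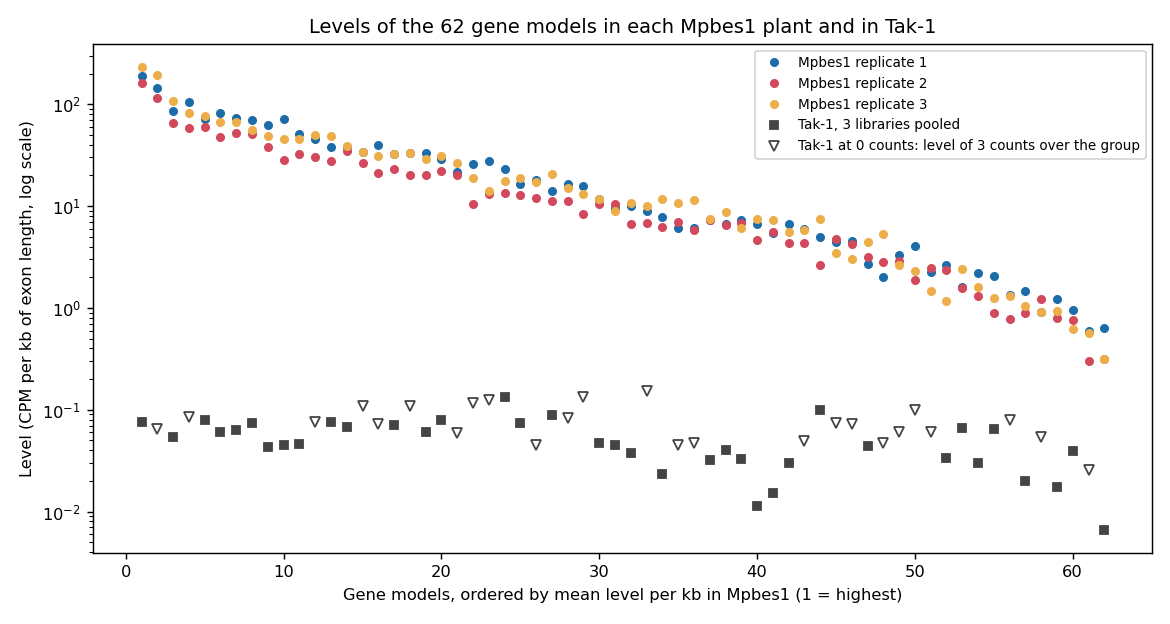
Level of each of the 62 gene models (members) in CPM per kb of exon length (log scale), ordered from the highest to the lowest mean in Mpbes1, with 1 point for each Mpbes1 plant, filled squares for the 3 Tak-1 libraries pooled, and open triangles at the level of 3 counts over the Tak-1 group where Tak-1 had 0 counts. Mpbes1 means ran from 194 down to 0.422 CPM per kb, and the points of replicate 2 often lie lowest.

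The strongest was Mapoly0025s0039.v3.1, which occupies 678255 to 679621 of scaffold_25 (minus strand), with 2 exon blocks (exons merged where they overlap). It had 2369, 2147 and 4397 counts in the Mpbes1 plants, which is 200, 169 and 244 CPM, against 2, 1 and 0 counts in the Tak-1 plants. Its mean was 194 ± 35.7 CPM per kb in Mpbes1 (SD, n = 3), and it ranked 406 of all gene models by level per kb in the mutant. The ratio of summed counts per library size, Mpbes1 over Tak-1, was 2618, with a 95% counting interval of 896 to 12699. That interval is wide because only 3 reads stand on the Tak-1 side, as with every ratio given for these gene models.

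Second came Mapoly0025s0043.v3.1 on the same strand of scaffold_25, from 747522 to 748982, also with 2 exon blocks. Its level was 181, 142 and 244 CPM in the Mpbes1 plants, and Tak-1 had 0 counts. Its mean in Mpbes1 was 152 ± 41.4 CPM per kb (SD, n = 3). This was 2368-fold the level of 3 counts over the Tak-1 group, which is a lower bound of its fold over Tak-1.

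The next strongest lay elsewhere in the genome. Mapoly1171s0002.v3.1, with 3 exon blocks on a scaffold of only 2 gene models, had 1014, 839 and 1911 counts in Mpbes1 and 2, 0 and 0 in Tak-1, a mean of 86.2 ± 20.1 CPM per kb in Mpbes1. Mapoly0012s0136.v3.1, with 3 exon blocks on the minus strand of scaffold_12 from 1629289 to 1631194, had 1176, 693 and 1404 counts in Mpbes1 and 0 in Tak-1. Its level of 77.2 ± 22.5 CPM (SD, n = 3) was 967-fold that of 3 counts over the Tak-1 group, again a lower bound of the fold. Replicate 1 was the highest mutant plant for this gene model, whereas replicate 3 was highest for the other 3 described so far.

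Mapoly0203s0009.v3.1, with 4 exon blocks, had the tightest values of the strongest 12, at 70.7, 59.6 and 76.2 CPM in Mpbes1 against 2, 1 and 0 counts in Tak-1. Mapoly0041s0039.v3.1 had 62.2, 44.0 and 56.0 CPM in Mpbes1 against 1, 1 and 0 counts in Tak-1, and Mapoly0185s0004.v3.1 had 74.3, 54.2 and 59.4 CPM against 0, 2 and 1 counts. Both of these have 2 exon blocks. In each of the 3, the mutant plant with the lowest level was replicate 2. Mapoly0029s0004.v3.1, with 4 exon blocks, closed the strongest 12 with 47.4, 31.7 and 52.0 CPM in Mpbes1 and 0 counts in Tak-1, at least 547-fold higher. The other 4 of the 12 lie on scaffold_35 and are described with that stretch.

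For the 25 gene models at 0 counts in Tak-1, the lower bound of the fold ran from 14.5 to 2368 with a median of 147. For the 37 with 1 to 3 counts the ratio of counts ran from 18.9 to 2618. The smallest values belong to weakly expressed gene models, for which the reads allow no larger fold to be shown.

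Near the limits of the selection, Mapoly0041s0143.v3.1 was just inside with 16, 10 and 24 counts in Mpbes1 and 0 in Tak-1, as was Mapoly0075s0025.v3.1 with 214, 180 and 366 counts in Mpbes1 and 1 count in each Tak-1 library. Just outside were 27 gene models with a Tak-1 sum of 4 to 6. The highest of these in Mpbes1, Mapoly0312s0001.v3.1, had 3360, 2601 and 5578 counts in Mpbes1 against 0, 5 and 1 in Tak-1. A further 7 had a lowest Mpbes1 count of 7 to 9, among them Mapoly1288s0001.v3.1 with 20, 7 and 27 counts in Mpbes1 against 0, 1 and 0 in Tak-1. These gene models were picked for lying within a few counts of a limit, so their closeness there is by construction. Their other counts differed widely.

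The mutant plants differed from each other in the level of these gene models. The summed level was 1622, 1180 and 1696 CPM in Mpbes1 replicates 1, 2 and 3, against 2.30, 1.87 and 1.69 CPM in Tak-1 replicates 1, 2 and 3. Replicate 2 had the lowest level of the 3 mutant plants for 48 of the 62 (77.4%), and its level was a median of 71.3% of the mean of the other 2 plants. Over all genes tested, replicate 2 was lowest for 31.0% and the same median was 99.9%. Over the 498 other genes called higher in Mpbes1 by at least 2-fold, it was lowest for 49.4%.

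The coefficient of variation between the mutant plants, the SD as a percentage of the mean, had a median of 24.3% over the 62 gene models, against 6.47% over all genes tested. It was 6.36% over the 10878 other tested genes whose Mpbes1 level lay within the range of the 62, and 14.3% over the 498 other genes called higher. That range, 1.04 to 204 CPM, takes in most genes tested and does not match the level. The median Mpbes1 level was 12.4 CPM over the 62, against 32.7 CPM over genes tested. Counting error alone would give a median of 7.54%, and the spread was larger than counting error for 55 of the 62. The same count was not made over all genes tested, so nothing particular to the 62 is read from it. In the 35 gene models with at least 100 counts in each Mpbes1 library the median was 23.3%, against 5.40% over the 9727 genes tested with as many counts, and replicate 2 was lowest for 32 of the 35. These shares compare 3 libraries and have no replicate check of their own.

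The spread was not uniform. Mapoly0160s0003.v3.1, with 4 exon blocks, varied least, with 142, 155 and 223 counts in the Mpbes1 plants and 0, 1 and 1 counts in Tak-1, and a coefficient of 1.4% on the CPM scale. Mapoly0085s0023.v3.1 varied most, with 3.38, 4.79 and 8.92 CPM in the Mpbes1 plants and 0 counts in Tak-1, a coefficient of 50.5%. In this gene model replicate 1, not replicate 2, was lowest. Replicate 1 was the highest plant for 33 of the 62, replicate 3 for 25 and replicate 2 for 4.

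**Figure D2:**
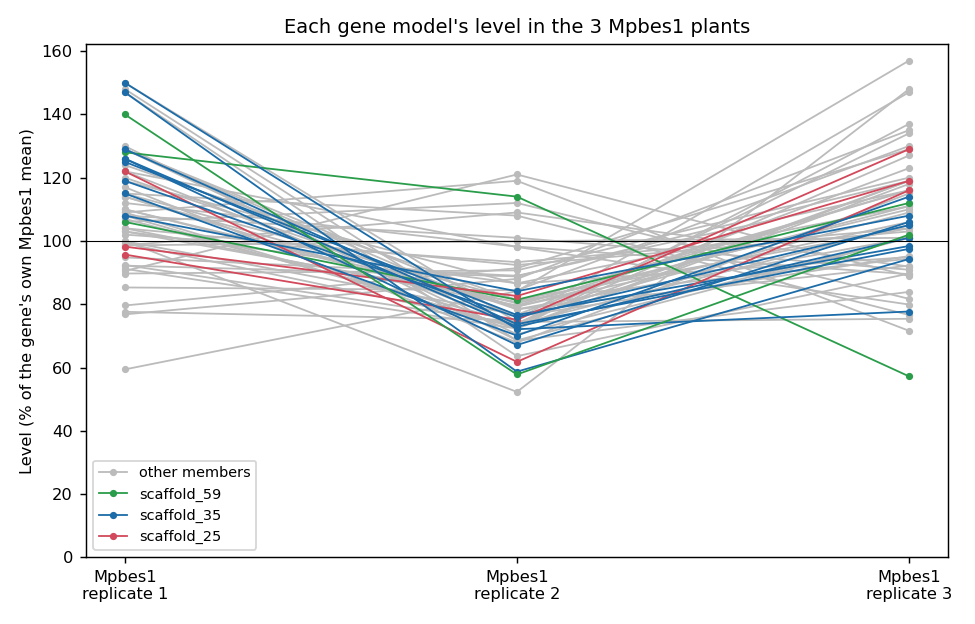
Level of each gene model in the 3 Mpbes1 plants as a percentage of its own mean over them, with 1 line per gene model and colours for those on scaffold_35, scaffold_25 and scaffold_59. Most lines dip at replicate 2, which was lowest for 48 of the 62, and the 9 lines of scaffold_35 are all highest at replicate 1.

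The 62 gene models lay on 41 scaffolds. Of these scaffolds 32 held 1 of them and 9 held 2 or more, with 9 on scaffold_35, 4 on scaffold_41 and 3 each on scaffold_25, scaffold_48 and scaffold_59. None of the 113 gene models on the male sex chromosome sequences Chr_Y_A and Chr_Y_B was among the 62. Only 31 of the 12313 genes tested lie there, so nothing is read from their absence in a list of 62. Scaffolds that carry 5 gene models or fewer held 4 of the 62 (6.45%), against 2.22% of genes tested and 3.60% of the whole table. For 14 of the 62 the next gene model on at least 1 side was also one of the 62. That number was 0 when Tak-1 had to have 0 counts, and 22 when the next 2 gene models on either side were searched. Counting groups in which at most 3 other gene models stand between successive ones, 23 fell into 7 groups and 39 stood alone.

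The largest group was the stretch on scaffold_35 from 841433 to 932785, 91.4 kb long. It holds 12 gene models, all on the plus strand, of which 9 were among the 62. Their summed level was 274, 157 and 219 CPM in the Mpbes1 plants, against 8 counts over all of Tak-1, and 4 of the 9 had 0 counts there. All 9 were highest in replicate 1 and lowest in replicate 2.

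The strongest of the 9 per kb was Mapoly0035s0090.v3.1, with 73.0, 42.3 and 58.8 CPM in Mpbes1 against 0, 2 and 0 counts in Tak-1. Mapoly0035s0082.v3.1 had 38.1, 23.3 and 30.0 CPM in Mpbes1 against 0, 1 and 0 counts in Tak-1, Mapoly0035s0084.v3.1 had 29.4, 18.7 and 25.8 CPM against 0, 0 and 1 counts, and Mapoly0035s0085.v3.1 had 42.5, 17.0 and 27.3 CPM against 1, 0 and 0 counts. These 4 complete the strongest 12. At 0 counts in Tak-1 were Mapoly0035s0083.v3.1, Mapoly0035s0088.v3.1, Mapoly0035s0091.v3.1 and Mapoly0035s0093.v3.1, with means of 12.4, 28.7, 18.3 and 31.6 CPM per kb in Mpbes1. The remaining one, Mapoly0035s0087.v3.1, had 167, 103 and 193 counts in Mpbes1 against 1, 2 and 0 in Tak-1.

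Gene models of this stretch resemble each other in structure, a property the selection did not use directly. The exon lengths of the 9 lie between 572 and 887 bases, and 7 of them have 2 exon blocks. The single intron is 114 bases long in each of 5 of them, Mapoly0035s0082.v3.1, Mapoly0035s0083.v3.1, Mapoly0035s0084.v3.1, Mapoly0035s0085.v3.1 and Mapoly0035s0087.v3.1. Their first exon blocks measure 307, 303, 305, 304 and 303 bases. An intron of 156 bases is found in Mapoly0035s0088.v3.1 and one of 136 bases in Mapoly0035s0091.v3.1. No sequence was compared. Whether these gene models share reads was not tested, and the sources used here do not say how reads with several alignments were handled, so the level of a single one is less certain than the sum.

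The 3 gene models inside the stretch that were not selected had more reads in Tak-1 and were also high in the mutant. Mapoly0035s0092.v3.1 had 2529, 1753 and 3298 counts in Mpbes1 against 2, 3 and 5 in Tak-1, and the log2 fold change (± SE) was 9.33 ± 0.32, with an adjusted p of 2.8e-07 in edgeR. That p-value is description only, since this gene model passed the filter through its Mpbes1 values. Mapoly0035s0086.v3.1 had 794, 536 and 1238 counts in Mpbes1 against 2, 3 and 4 in Tak-1. Mapoly0035s0089.v3.1 had 669, 443 and 773 counts in Mpbes1 against 18, 10 and 14 in Tak-1. Their Mpbes1 levels were 280, 72.7 and 65.0 CPM per kb, so the first 2 lay above the highest of the 9, at 65.4, and the third just under it. Their introns have 136, 156 and 136 bases, lengths that also occur in the selected ones.

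On scaffold_25 the 3 selected gene models lie between 678255 and 748982, with 2 others between them. Mapoly0025s0039.v3.1 and Mapoly0025s0043.v3.1 are the strongest of the 62. Between them on the opposite strand lies Mapoly0025s0041.v3.1, with a single exon block of 3151 bases and 22, 12 and 32 counts in Mpbes1 against 0 in Tak-1. At 0.484 CPM per kb it ranked 61 of the 62. The summed level of the 3 was 383, 312 and 490 CPM in the Mpbes1 plants against 3 counts in Tak-1, and replicate 2 was again lowest for each of them. The exon block at the higher coordinate, the first in the direction of transcription, measures 550 bases in Mapoly0025s0039.v3.1 and 540 in Mapoly0025s0043.v3.1. It measures 544 bases in both of the unselected 2-block gene models between them.

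On scaffold_59, between 132987 and 145064, lie 3 selected gene models of 2 exon blocks each. Mapoly0059s0011.v3.1 had 231, 191 and 374 counts in Mpbes1 against 2, 0 and 0 in Tak-1. Mapoly0059s0012.v3.1 had 209, 93 and 233 counts in Mpbes1 against 0 in Tak-1, and Mapoly0059s0015.v3.1 had 25, 24 and 17 counts against 1, 0 and 0. The first stands on the minus strand and the second on the plus strand, so the strand is not shared in this group. Mapoly0059s0013.v3.1, not selected, had 112, 100 and 189 counts in Mpbes1 against 2, 1 and 1 in Tak-1. Mapoly0059s0014.v3.1, which lies next to Mapoly0059s0015.v3.1 and also has 2 exon blocks, had 0 counts in all 6 libraries, so not every gene model of the stretch had reads in the mutant.

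Smaller groups of 2 lay on scaffold_22, scaffold_48, scaffold_91 and scaffold_119. On scaffold_22 the pair was of 1 exon block each, 5327 bases apart, on opposite strands and summed to 35.4, 23.4 and 30.4 CPM in the Mpbes1 plants, against 3 counts in Tak-1. On scaffold_48 the gap was 51653 bases, and both gene models were highest in replicate 2 and lowest in replicate 3. That order differs from the one seen on scaffold_35 and scaffold_25. The counts were low, at 56, 64 and 66 for Mapoly0048s0077.v3.1 and 66, 79 and 94 for Mapoly0048s0078.v3.1 in Mpbes1 replicates 1, 2 and 3. The coefficients of variation were 16.1% and 8.87%, so the order may lie within counting error.

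**Figure D3:**
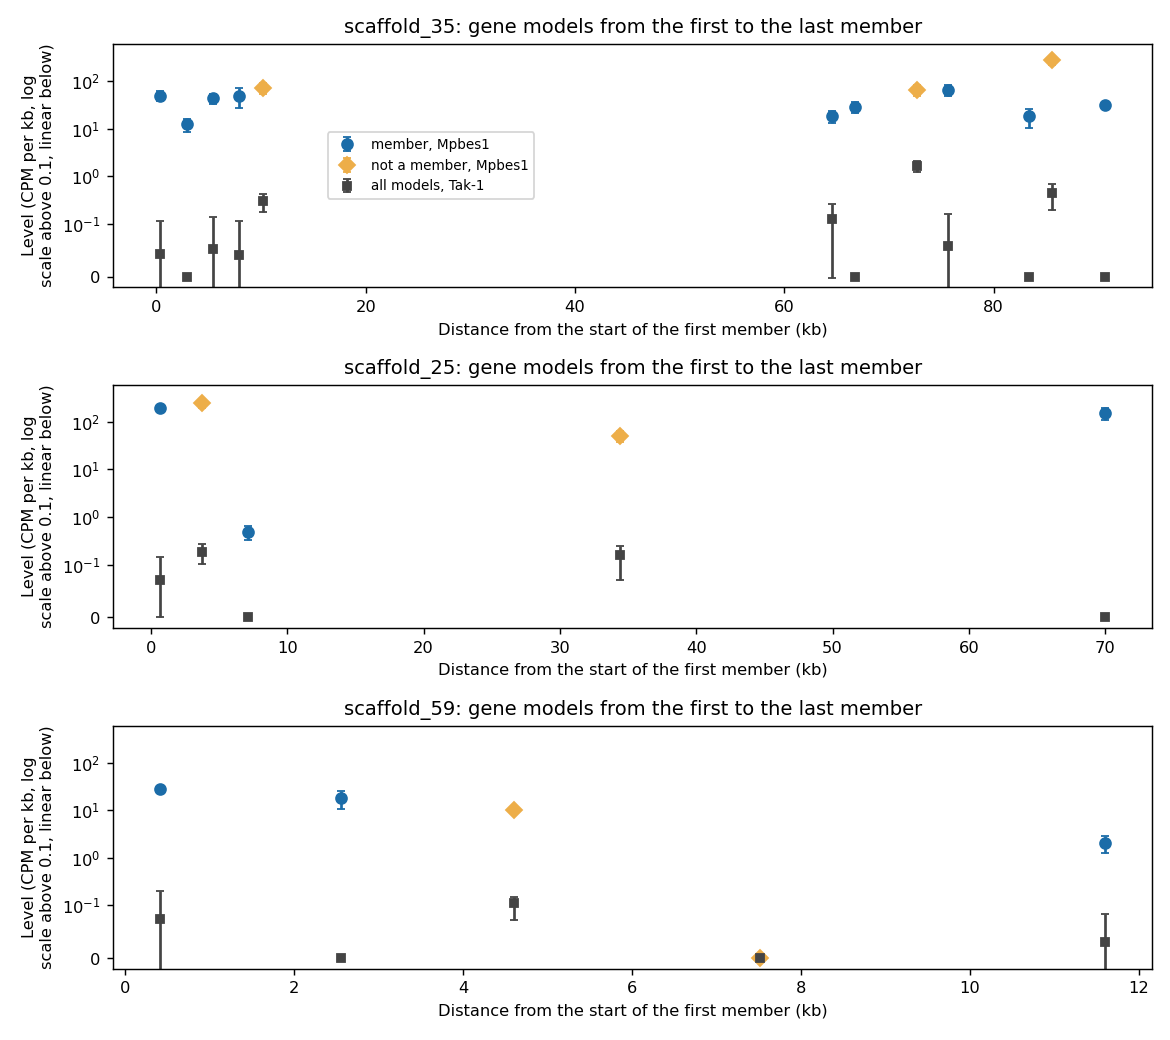
Mean level in CPM per kb (log scale above 0.1, linear below; bars are the SD over 3 plants) of every gene model from the first to the last selected one on scaffold_35, scaffold_25 and scaffold_59, against the distance from the start of the first. Circles are selected gene models in Mpbes1, diamonds the others in Mpbes1, and squares all of them in Tak-1; on scaffold_59 one gene model is at 0 in both genotypes.

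Genes next to the 62 were then examined, with the limit that the list is not free of the selection: genes that met the count limits were left out of it, and some that just missed them, such as Mapoly0059s0013.v3.1, are in it. The nearest gene model on each side that was not itself one of the 62 was taken, 93 in all. Of these, 60 passed the filter and were tested in the edgeR fit over all genes. The other 33 had few or no reads, 14 of them none in any library.

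Of the 60 flanking genes tested, 19 (31.7%) were called higher in Mpbes1 by at least 2-fold, against 4.55% of all genes tested. Lower by at least 2-fold were 6 (10%), against 7.16%. Calls of any size were 26 higher (43.3%) and 11 lower (18.3%), against 19.3% and 21.1% of all genes tested. Their median log2 fold change was 0.27, against 0.01 over all genes tested, and 23 of the 60 were called in neither direction. The 19 called higher by at least 2-fold had a median Tak-1 level of 0.276 CPM. Many of them thus passed the filter on low counts only through their Mpbes1 values, and the share of 31.7% is not independent of the selection. With no filter on low counts, 19 of 79 flanking genes (24.1%) were called so, against 3.95% of 16262 genes. The flanking genes called higher lay on 14 scaffolds, and 14 of the 19 stood on the same strand as the nearest of the 62, as did 33 of the 60 tested. Neighbouring genes are not independent of each other, and several of these lie in the stretches described above. Of the 19, 6 had the strand and the number of exon blocks of the single nearest of the 62. That number leaves out likeness to others of the 62 in the same stretch. Mapoly0025s0040.v3.1 and Mapoly0025s0042.v3.1 have the strand and 2 exon blocks of Mapoly0025s0039.v3.1, and Mapoly0035s0089.v3.1 has those of Mapoly0035s0091.v3.1. Whether such gene models share reads was not tested.

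All 6 tested flanking genes with one of the 62 on both sides were called higher. Except for Mapoly0035s0089.v3.1, their mean Tak-1 levels were at most 0.276 CPM. That gene model had 18, 10 and 14 counts in Tak-1 and fell just short of the filter's limit in Tak-1 replicate 2. All 6 thus passed the filter through their Mpbes1 values, which leaves little room for another outcome. A further such gene model, Mapoly0119s0004.v3.1, had 0 counts in all 6 libraries and was not tested. Of the 54 with one on 1 side only, 13 (24.1%) were called higher and 6 (11.1%) lower. One gene model further out, 6 of 52 tested genes (11.5%) were called higher and 3 (5.77%) lower, and their median log2 fold change was 0.00. Over all genes tested the shares were 4.55% higher and 7.16% lower. Genes further out can also pass the filter through their Mpbes1 values alone. Without the scaffolds of the 2 largest groups, an alternative chosen after the data were seen, 13 of 53 flanking genes (24.5%) were called higher.

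The flanking gene with the largest rise was Mapoly0025s0040.v3.1, which has 2 exon blocks and lies from 681425 to 682599 on scaffold_25. It had 2684, 2601 and 5463 counts in Mpbes1 against 3, 3 and 1 in Tak-1, levels of 245 ± 51.5 CPM in Mpbes1 and 0.182 ± 0.081 CPM in Tak-1 (SD, n = 3 each). On the log2 scale the edgeR fold change was 10.29 ± 0.30 (SE), with an adjusted p of 8.2e-08, and the groups did not overlap. The 3 Tak-1 libraries held more than the 3 reads that the selection allows. This gene was named for its rise and passed the filter through its Mpbes1 values. Its p-value and the separation of the groups are therefore given as description only.

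Away from the large stretches, Mapoly0054s0040.v3.1, which lies 3427 bases from Mapoly0054s0041.v3.1 on the other strand, had 5574, 4523 and 9797 counts in Mpbes1 against 7, 20 and 5 in Tak-1. In edgeR its log2 fold change was 9.05 ± 0.32 (SE), with an adjusted p of 5.7e-07. Mapoly0048s0079.v3.1, with 15 exon blocks, begins 229 bases beyond Mapoly0048s0078.v3.1 on the same strand and had 25.8 ± 3.01 CPM in Mpbes1 and 0.194 ± 0.144 CPM in Tak-1 (SD, n = 3 each). Both genes were chosen for mention after their values were seen, and both passed the filter through their Mpbes1 values. The p-value of Mapoly0054s0040.v3.1 is therefore description only.

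The largest fall among the flanking genes was in Mapoly0106s0031.v3.1, 9967 bases from Mapoly0106s0030.v3.1. It had 0.169, 0.550 and 0.609 CPM in Mpbes1 against 5.42, 23.1 and 34.8 CPM in Tak-1, and the edgeR log2 fold change was -5.46 ± 0.97 (SE), with an adjusted p of 6.3e-03. The groups did not overlap, but the Tak-1 plants differed widely. This gene was named for its fall and passed the filter through its Tak-1 values. Its p-values and the separation of the groups are therefore description only. Without Mpbes1 replicate 3 the call was lost, at an edgeR adjusted p of 5.3e-02, the highest of a range that began at 1.3e-06 when 1 library was left out. Its neighbour Mapoly0106s0030.v3.1, one of the 62, moved the other way, with 355, 349 and 553 counts in Mpbes1 against 0, 1 and 1 in Tak-1.

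**Figure D4:**
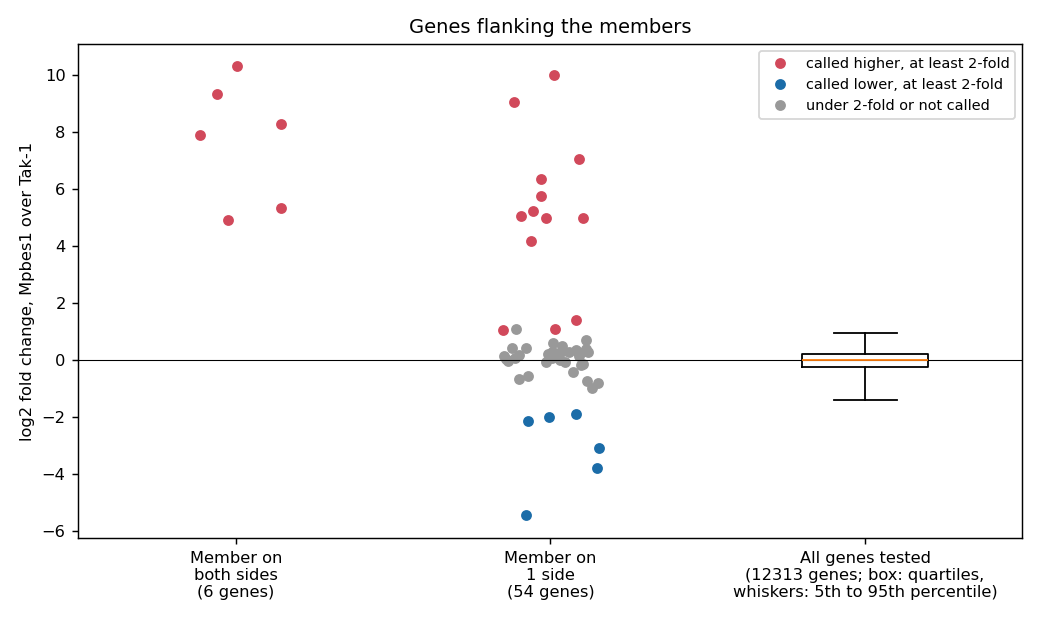
Log2 fold change, Mpbes1 over Tak-1, of the 60 tested flanking genes, split into those with a selected gene model on both sides and on 1 side, beside a box of all 12313 genes tested. All 6 points on the left and 13 of the 54 in the middle are called higher by at least 2-fold, 6 are called lower, and most of the middle points lie close to 0. Genes with few Tak-1 reads were tested through their Mpbes1 values.

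In exon structure, the 62 were short, and they had few exons mainly beside the genes tested. Models of 1 or 2 blocks made up 50% of the 62, against 28.9% of genes tested and 43.7% of all gene models. The selection used raw counts, which also depend on exon length, so length is not fully independent of it. Their exon length ran from 528 to 4004 bases with a median of 1068, against medians of 2394 bases over genes tested and 1927 over all gene models. The median number of exon blocks was 2.5, against 5 over genes tested and 3 over all gene models. One exon block was found in 9 of the 62 (14.5%), 2 blocks in 22 (35.5%), 3 or 4 in 22 (35.5%) and 5 or more in 9 (14.5%). Over genes tested the shares were 13.6%, 15.3%, 19.6% and 51.6%, and over all gene models 22.8%, 20.9%, 19.4% and 36.9%.

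Of the 22 gene models with 2 blocks, 12 lie in the groups on scaffold_35, scaffold_25 and scaffold_59, so they are not 22 separate cases. Per kb, the median level in Mpbes1 was 18.3 CPM for gene models of 2 blocks, 8.59 for those of 1 block, 7.56 for those of 3 or 4 and 6.21 for those of 5 or more. The ranges of these classes overlapped widely, from 1.02 to 194 CPM per kb with 2 blocks and from 0.422 to 15.7 CPM per kb with 5 or more. The one with most exon blocks, Mapoly0067s0073.v3.1 with 15 blocks over 4004 bases, was also the weakest per kb, with 30, 16 and 23 counts in Mpbes1 against 1, 0 and 0 in Tak-1.

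**Figure D5:**
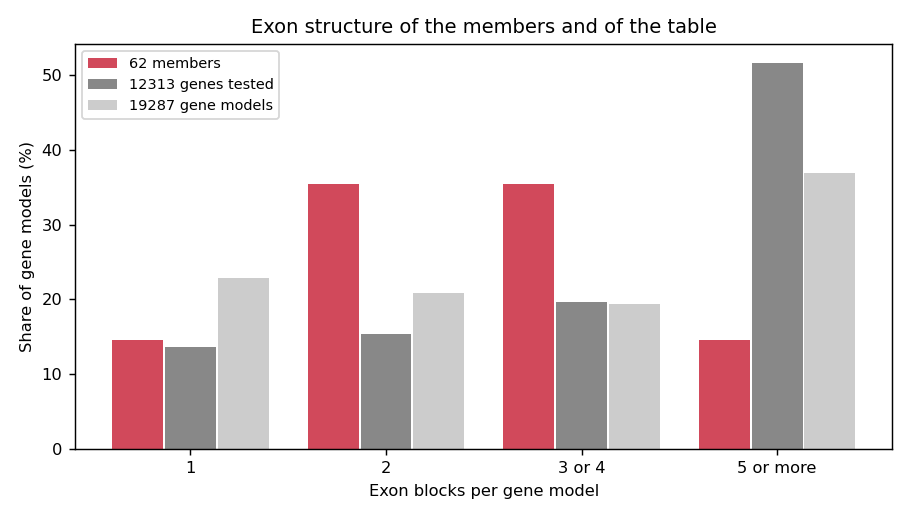
Share of gene models by number of exon blocks for the 62 selected ones, the 12313 genes tested and all 19287 gene models of the table. Among the 62, 35.5% had 2 blocks and 14.5% had 5 or more. The shares were 15.3% and 51.6% of genes tested, and 20.9% and 36.9% of all gene models.

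The strands were about evenly used, with 32 of the 62 on the plus strand. Only 2 overlapped another gene model, in both cases on the opposite strand, against 8.19% of genes tested that overlapped any other. One of them, Mapoly0119s0003.v3.1, spans Mapoly0119s0004.v3.1, which had 0 counts in all 6 libraries. The other, Mapoly0049s0088.v3.1, had 32, 18 and 72 counts in Mpbes1 against 1, 0 and 1 in Tak-1, and the sources used here do not say whether the counting used strand. These 2, and Mapoly0067s0073.v3.1, were also singled out after their values were seen.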

How the data were processed

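The values that the authors deposited are unnormalized counts of reads for each gene model in 6 libraries, beside exon positions and exon lengths, per the file headers. Tools listed in the submitters' processing notes are featureCounts 1.5.1, STAR 2.5.2b and edgeR. Not given in the sources used here are the genome build, the strand setting and the treatment of reads with several alignments. The labels state RNA integrity numbers above 7 and a stranded mRNA kit, and the design text calls the 3 plants of a genotype independent biological replicates.

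The gene models, the groups and the lists were chosen with earlier results of these data known. All genes were tested by quasi-likelihood in edgeR 4.0.16 under R 4.3.3, with TMM factors, filterByExpr, a robust fit and genotype as the only term, with Benjamini-Hochberg adjustment over 12313 genes and calls at an adjusted p under 0.05. Calls of at least 2-fold also need a log2 fold change of 1 or more in size. Standard errors were derived from the F statistic. The procedure was tested on simulated data. Gene models were named by a rule: the 12 with the highest Mpbes1 level per kb, those of the 3 largest groups, the extremes of spread, those at the limits of the selection, and the flanking genes with the largest rise and fall. Ratios have exact 95% intervals from summed counts. Intervals and limits cover counting error only. Alternatives were RLE factors, library size only, DESeq2 1.42.0, other filters, other count limits, a replicate block and leaving out each library.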

Additional observations from a re-analysis of the deposited data

How the results depend on the processing

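The number of selected gene models was 62. It was 25 when Tak-1 had to have 0 counts, 51 with at least 30 counts in each Mpbes1 library, 60 with counts scaled to the smallest library, and 62 to 81 without 1 library, with the limit on the Tak-1 sum kept. Those next to another selected gene model numbered 14, 0 when Tak-1 had to have 0 counts, and 22 when the next 2 gene models on either side were searched. Flanking genes called higher by at least 2-fold numbered 19 in the reported fit, 13 to 20 under the alternatives run with the nearest gene model on each side, and 25 of 112 tested with the 2 nearest. Those called lower numbered 6, against 5 to 7 under the same alternatives and 9 with the 2 nearest. The calls of 23 of these 25 genes held in every fit that tested them. The exceptions were Mapoly0106s0031.v3.1, described above, and Mapoly0002s0226.v3.1, which lost its call in 5 of 12 alternative fits and was not tested in 1. Leaving out flanking genes with a selected gene model on both sides, or the scaffolds of the 2 largest groups, was chosen after the data were seen.

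The replicate numbers do not pair the plants by any label, and same-numbered deviations from the group means correlated at 0.17, -0.03 and 0.14. With the replicate block, 20 flanking genes were called higher and 6 lower. All 62 selected gene models were called in each fit that tested them; with at least 5 CPM in 3 libraries, 43 were tested. Depth limits statements on Tak-1 levels to those above 0.0799 CPM over the group.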
